A study of Mus musculus with 6 samples.

Results

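The genes examined here belong to 4 symbol families of the centrosome and the primary cilium. They were measured in cells sorted as cortical upper-layer neurons from Swiss Webster mice. Markers of other cell types were also found in these samples, and their part in the levels was not tested. A gene was taken as a member when its symbol began with Cep, Ift, Bbs or Tctn followed by a digit and its row named 1 gene. This gave 43 of the 22544 rows of the table, of which 20 are Cep, 12 Ift, 8 Bbs and 3 Tctn genes. Neurons that carried GFP were sorted from mice aged 3 (P3) or 5 (P5) days after birth, with 3 biological replicates at each age and their RNA was sequenced. The labels name no treatment, and no allele other than GFP. How the cells were made to express GFP, and whether animals were pooled, is not given in the sources used here.

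The centrosome consists of a pair of centrioles in a protein matrix that nucleates microtubules. In a cell that has left the cell cycle, the older centriole docks at the membrane and becomes the basal body of a primary cilium, an antenna for Hedgehog and other signals. Cep genes encode centrosomal proteins. Ift genes encode the intraflagellar transport trains that carry cargo along the cilium, outward with the IFT-B complex and back with IFT-A. Most Bbs genes encode the BBSome, a coat that sorts membrane proteins of the cilium, and Tctn genes encode tectonics of the transition zone, the gate at its base. Mutations in many of these genes cause ciliopathies, and several Cep genes are mutated in primary microcephaly.

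Expression is given as FPKM, fragment counts scaled by transcript length and library size, so levels of different genes can be compared per length. The authors' deposited table holds 1 pooled FPKM per age and no value per replicate, so replicate values cannot be shown. Ratios are log2 of the P5 level over the P3 level. Each standard error (SE) was worked back from the statistic of the authors' Cuffdiff run. The number of fragments behind each value is unknown.

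All 43 genes were listed above 0 at both ages. Intraflagellar transport genes had the highest levels, with a median of 8.23 FPKM at P3 and 7.74 at P5. Median levels were 3.08 and 2.80 FPKM for Cep genes, 1.81 and 3.04 for Bbs genes and 3.36 and 2.19 for the 3 Tctn genes. Over the 41 members that Cuffdiff tested the median was 3.37 FPKM at P3 and 3.33 at P5, below the 4.90 and 5.59 of all 12865 tested rows. Over all rows, tested or not, the 43 genes had medians of 3.36 and 3.27 FPKM, above the 0.481 and 1.0004 of the whole table, so the order depends on which rows are counted. At least 1 FPKM was reached by 35 of the 43 genes at P3 and by 38 at P5, and at least 10 FPKM by 10 and by 8.

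**Figure D1:**
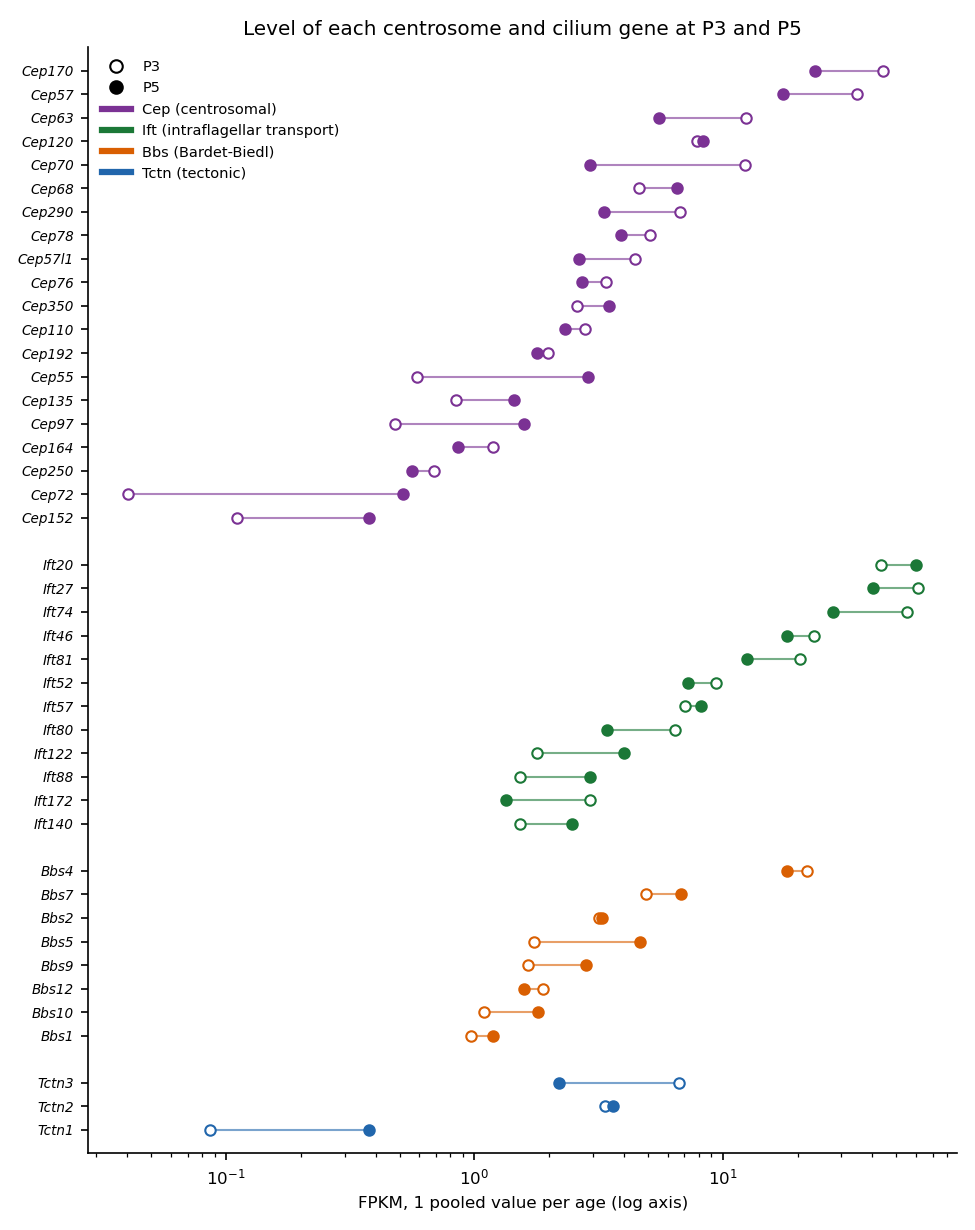
FPKM of each of the 43 genes at P3 (open circles) and P5 (filled circles) on a log axis, 1 pooled value per age, ordered by mean level within each family. The Ift family reaches 60.8 FPKM at P3 and 60.1 at P5, and Cep72, Cep152 and Tctn1 lie lowest.

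No member of the 4 families differed between P3 and P5 at q = 0.05. Of the 43 genes, 41 were tested by Cuffdiff, and 0 were called higher or lower, as were 0% of all tested rows. At an unadjusted p under 0.05 there were also 0 members, against 0.591% of all tested rows higher and 0.179% lower at P5. The lowest p of the families was 0.0969 in the authors' deposited table, for Cep70. Cep152 and Tctn1 were marked as not tested in the authors' deposited table and carry no SE.

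The direction of the ratios was mixed. FPKM was higher at P5 in 19 of the 41 tested members (46.3%) and lower in 22, against 55.6% higher over all tested rows above 0 at both ages. The median log2 ratio was -0.25 for the members and 0.13 for all rows. A ratio of at least 2-fold in either direction was seen in 10 of the 41 members, against 33.9% of all rows. Of these 10, Cep72, Cep55, Cep97, Ift122 and Bbs5 were higher at P5 and Cep70, Tctn3, Cep63, Ift172 and Cep290 lower, whereas 2939 of all 12313 rows were at least 2-fold higher and 1233 lower. By family, 7 of 19 Cep genes, 5 of 12 Ift genes, 6 of 8 Bbs genes and 1 of 2 tested Tctn genes were higher at P5. Family medians of the log2 ratio were -0.30, -0.37, 0.38 and -0.74 in that order. Taken as a mean the Cep value was 0.04, and with the untested Tctn1 included the Tctn value was 0.11, so the sign of both depends on these choices. Once ratios are centred on the median of all rows, the small positive ratios of Bbs2, Cep120 and Tctn2 become -0.08, -0.06 and -0.02.

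The errors were wide. The SE of a member's log2 ratio had a median of 1.35, close to the 1.38 of all tested rows, and the lowest was 0.87, for Ift46. The 95% interval of every tested member contained 0 on the deposited statistic. For Ift46 it ran from -2.08 to 1.35, which takes in more than 2-fold in either direction for even the best measured member. The deposited statistic had a robust spread of 0.66 over all tested rows, where a standard normal has 1. When it was divided by that spread the median SE of the members was 0.893, and 0 members reached q = 0.05, against 0.0244% of all rows. At an unadjusted p under 0.05 the rescaled statistic passed 1 of the 41 members, Cep70, which was lower at P5, against 4.55% of all rows higher and 1.81% lower. The rescaled interval of Cep70 ran from -3.70 to -0.45, and it was the only member interval that left out 0. Rescaling the Cuffdiff statistic of the authors' deposited table gave Cep70 p = 0.0122 before adjustment and an adjusted p = 0.591.

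**Figure D2:**
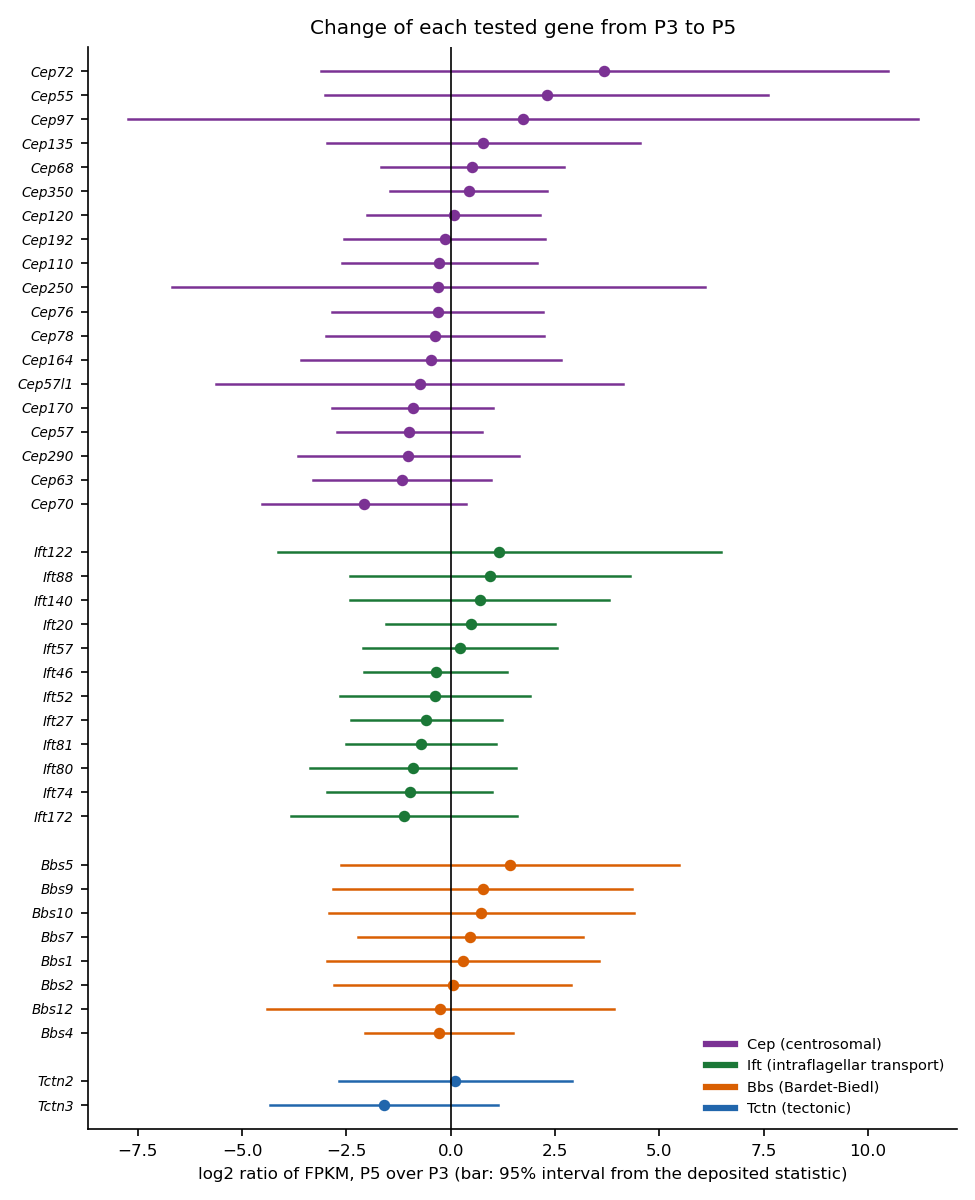
Log2 ratio of FPKM, P5 over P3, for the 41 tested genes by family (points), with the 95% interval implied by the deposited statistic (bars). Every interval crosses 0, and the widest belong to genes of low level such as Cep97 and Cep72.

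Among the abundant genes of these families, nearly all ratios were negative. Of 8 tested members with a mean of at least 10 FPKM, 1 was higher at P5 (Ift20) and 7 were lower, with a median log2 ratio of -0.65. Over all rows of that level, 47.6% were higher at P5 and the median ratio was -0.04. Among members below 2 FPKM, 7 of 11 were higher at P5, against 67.3% of all rows at that level. Between these limits 11 were higher and 11 lower, against 55.8% of all rows higher. In bulk RNA, fewer cells of a type and less RNA per cell cannot be told apart.

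**Figure D3:**
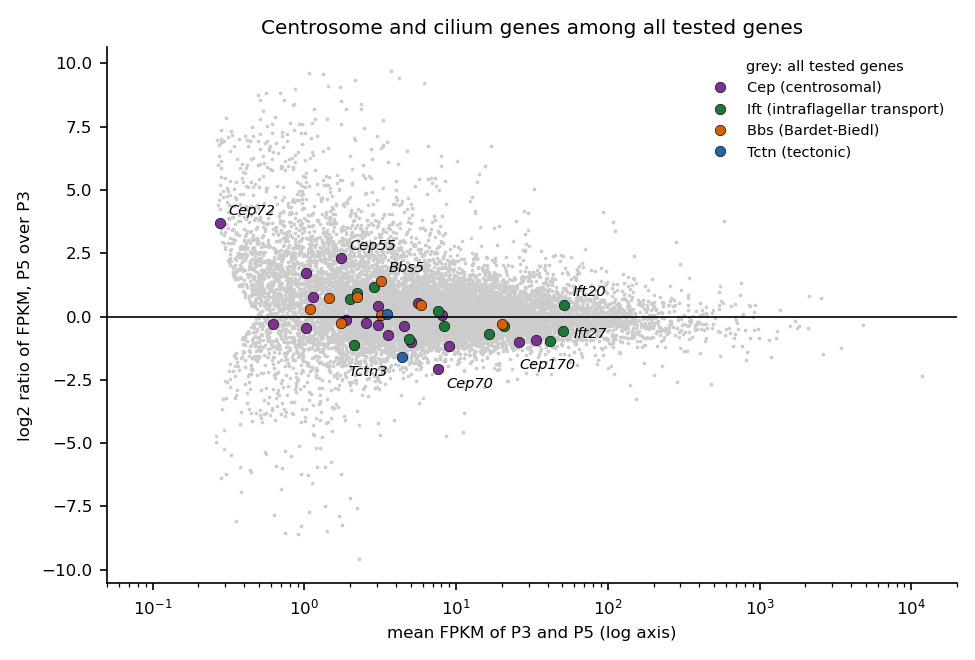
Log2 ratio of FPKM, P5 over P3, against mean FPKM (log axis) for the members, coloured by family, and for all tested rows above 0 at both ages in grey. The 7 members above 10 FPKM other than Ift20 lie below 0.

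Promoter sequences are shown because they describe the families by a property that the FPKM values did not enter. RFX transcription factors, which control many cilium genes, bind a sequence known as the X-box, built of a pair of inverted cores. The core GTTGCC was searched on both strands from 250 bases before to 50 bases after each start in RefSeq promoter sequences of build GRCm38.p6, which held 36 of the 43 genes (Cep110 under its present symbol Cntrl). Cep120, Cep192, Cep350, Cep76, Ift122, Ift80 and Ift81 had no entry. The core lay near a start of 3 of 3 Tctn, 5 of 9 Ift, 3 of 8 Bbs and 4 of 16 Cep genes, against 14.1% of all 27025 genes of that collection. Over the genes that are also in the deposited table the share was 13.8%. A gene with several starts had more sequence to match, and 5 of the 36 members had more than 1.

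A pair of cores facing each other, GTTNCC and GGNAAC with 1 to 3 bases between them, lay near the start of 4 of 20 Ift, Bbs and Tctn genes and of 0 of 16 Cep genes. The share over all genes was 0.903%. Of these, 3 are printed 5′ to 3′ on the strand of the gene, in 30-base windows with the paired cores in capitals.
Bbs7: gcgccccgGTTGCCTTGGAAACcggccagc
Tctn1: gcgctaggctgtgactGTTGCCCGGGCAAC
Tctn3: ctcccagcgGTTGCCAGGTAACgggaacca
The windows lie on GRCm38.p6 at chr3:36613489-36613518 (minus strand) for Bbs7, chr5:122264411-122264440 (minus) for Tctn1 and chr19:40612351-40612380 (minus) for Tctn3. The capitals begin 121 and 140 bases before the start in Bbs7 and Tctn3, and 36 bases after it in Tctn1. The match in Tctn1 is a perfect inverted repeat around its centre.

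Single cores of the other cilium genes are shown in the same way, so that the flanks can be compared with the pairs. The capitals are GTTGCC, or GGCAAC where the core is on the opposite strand.
Bbs1: atggctgagctgGTTGCCaaggcgacgcct
Bbs5: gatgtcgtgacaaagccggcgcGTTGCCtt
Ift27: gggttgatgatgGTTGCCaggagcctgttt
Ift88: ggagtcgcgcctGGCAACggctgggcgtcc
Ift140: gcgtgttgtgacGGCAACctcgcgcccttg
Ift172: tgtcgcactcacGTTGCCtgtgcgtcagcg
Tctn2: cattgattggtgGTTGCCatggctgcaggc
Of these, Ift27 and Ift140 carry the core 9 and 109 bases before the start, and the others at the start or within the 50 bases after it. A match describes the letters and does not show that a factor binds there.

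Ratios of genes with and without a core are given as counts, and their difference was not tested. Of 10 tested Ift, Bbs and Tctn genes with a core, 7 were higher and 3 lower at P5, with a median log2 ratio of 0.26. Of the 9 tested genes with an entry and no core, 4 were higher and 5 lower, with a median of -0.25. The 2 groups also differed in level. Median FPKM was 3.13 at P3 and 3.28 at P5 with a core, and 9.41 and 7.26 without. Of the RFX genes, Rfx3 had 9.59 FPKM at P3 and 8.79 at P5, and Rfx4 had 11.2 and 8.92.

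The letters TTTGAA, the core of the CHR element of late cell cycle genes, were found near a start of 6 of 16 Cep genes (Cep110, Cep164, Cep170, Cep55, Cep57l1 and Cep72) and of 0 of 20 Ift, Bbs and Tctn genes. Their share over all genes was 20.2%. All 5 members with several starts are Cep genes, so more sequence was searched in that family, and 4 of the 6 matches were in such genes. Among genes with a single start the letters were found in 2 of 11 Cep genes (18.2%), close to the 18.5% of all such genes, and in 0 of 20 others of the families. The X-box core was found in 2 of 11 Cep genes with a single start, against 12.7% of all such genes, and its counts in Ift, Bbs and Tctn genes were the same, since each has 1 start. Of 2 E2F sites searched, TTTCCCGC was found in 0 of 36 members (1.24% of all genes) and TTTGGCGC in 1, Ift27 (0.585%).

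**Figure D4:**
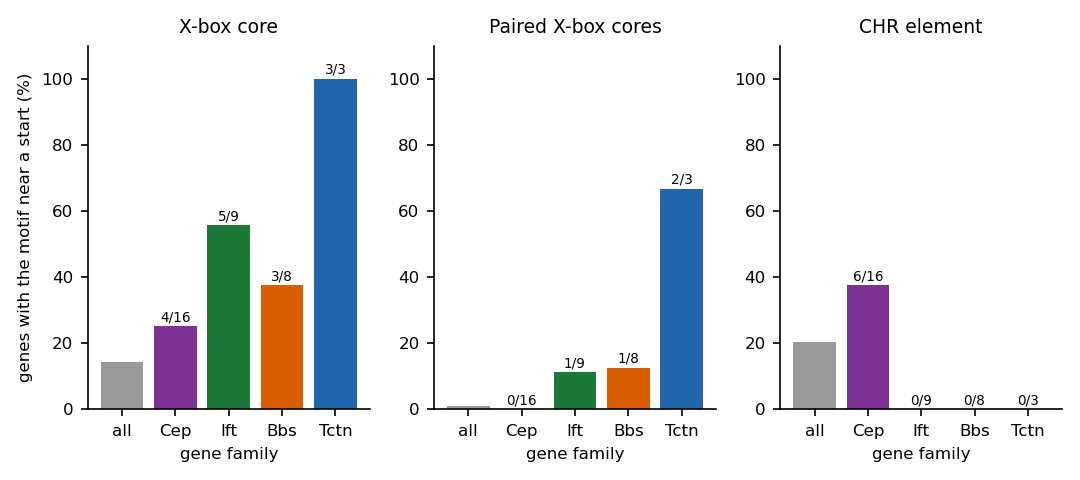
Share of genes with each promoter motif, from 250 bases before to 50 bases after a RefSeq start, for all 27025 genes (grey) and for each family, with counts above the family bars. Cores of the X-box are commonest in Tctn and Ift genes, and the CHR element is found among these families in Cep genes alone, the only family with genes of several starts.

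Centriole duplication begins with Cep152 and Cep63, which form a ring around the parent centriole that recruits the kinase Plk4. Cep63 had 12.4 FPKM at P3 and 5.52 at P5, with a log2 ratio of -1.17 (SE 1.09, p = 0.281 in the authors' deposited table). Its partner Cep152 was at 0.110 and 0.377 FPKM, among the 3 lowest levels of the families at either age. Cep63 exceeded its partner at both ages.

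Other duplication genes ranged from under 1 FPKM to 8.29. Cep192, which helps to recruit Plk4 and the pericentriolar material, had 1.97 FPKM at P3 and 1.78 at P5. Cep135, a cartwheel protein, was at 0.841 and 1.44 FPKM. Cep97, which caps the growing centriole, was at 0.479 and 1.58 FPKM, and its SE of 4.83 was the widest of the members. Cep120, needed for centriole elongation, was at 7.90 and 8.29 FPKM, a log2 ratio of 0.07 (SE 1.06). Cep78 was at 5.09 and 3.91 FPKM, and Cep76, which limits extra duplication, at 3.37 and 2.71. Among the 7 tested genes of this role 3 were higher and 4 lower at P5, and Cep63 had the only ratio of at least 2-fold downward.

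Appendages of the older centriole anchor microtubules and dock the cilium. Cep170, a protein of the subdistal appendages, was the most abundant Cep gene, at 44.1 FPKM at P3 and 23.5 at P5 (mm9 chromosome 1, 178663784 to 178737255). Its log2 ratio was -0.91 (SE 0.98, p = 0.356 in the authors' deposited table). Cep164, a distal appendage protein required for docking, was at 1.19 and 0.857 FPKM, 37.1-fold below Cep170 at P3 and 27.4-fold below it at P5. Cep110, or centriolin, was at 2.79 and 2.31 FPKM, and Cep350, which anchors microtubules, at 2.59 and 3.49. Among these 4 genes Cep170 alone was above 10 FPKM.

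Cep290, a gatekeeper of the transition zone often mutated in Joubert syndrome, had 6.72 FPKM at P3 and 3.33 at P5, with a log2 ratio of -1.01 (SE 1.35). Its locus is shared with 4930430F08Rik, which was at 13.1 and 18.6 FPKM. Strandedness was not given, and the part of 4930430F08Rik reads in the Cep290 value was not tested. The linker that holds centrioles together had Cep250 at 0.688 and 0.560 FPKM and Cep68 at 4.59 and 6.57. Neither linker gene passed 2-fold.

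The lowest p of all members belonged to Cep70, which binds gamma-tubulin. It had 12.3 FPKM at P3 and 2.92 at P5 (mm9 chromosome 9, 99143887 to 99200822), with a log2 ratio of -2.07 (SE 1.25, p = 0.0969, q = 0.999988 in the authors' deposited table). Cep70 was the tenth most abundant of the 43 genes at P3 and the twenty-fourth at P5. Cep57, a pericentriolar protein, was at 34.6 and 17.4 FPKM, a log2 ratio of -0.99 (SE 0.88), and its paralog Cep57l1 at 4.44 and 2.65. Cep72, which binds at centriolar satellites, was at 0.0403 and 0.517 FPKM, and its log2 ratio of 3.68 became 0.54 with a pseudocount of 1 FPKM.

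Cep55, which acts at the midbody in the last step of cell division, had the largest upward ratio among members that reached 1 FPKM at either age. It had 0.585 FPKM at P3 and 2.88 at P5, with a log2 ratio of 2.30 (SE 2.71, p = 0.397 in the authors' deposited table). With a pseudocount of 1 FPKM the ratio was 1.29. Its 95% interval ran from -3.01 to 7.61.

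Intraflagellar transport genes named Ift differed in level by complex. The 6 genes of the IFT-B core had a median of 21.9 FPKM at P3 and 15.4 at P5, the 4 peripheral IFT-B genes 6.72 and 5.81, and the 2 IFT-A genes 1.66 and 3.23. Of the 10 IFT-B genes named Ift, 3 were higher and 7 lower at P5, with a median log2 ratio of -0.48. Both IFT-A genes named Ift were higher. Among tested IFT-A genes with other symbols, Wdr35 was higher, at 4.97 FPKM at P3 and 6.80 at P5. Ttc21b was lower, at 3.14 and 1.76 FPKM. Whether the IFT-A and IFT-B ratios differ was not tested.

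Ift27, a Rab-like GTPase of the core, was the most abundant member at P3, at 60.8 FPKM against 40.4 at P5 (mm9 chromosome 15, 77989893 to 78004538). Its log2 ratio was -0.59 (SE 0.92, p = 0.524 in the authors' deposited table). Ift74 and Ift81, which together bind tubulin, were at 55.1 and 27.9 FPKM and at 20.5 and 12.6. Both partners were lower at P5, with log2 ratios of -0.98 (SE 1.01) and -0.71 (SE 0.92). Ift46 was at 23.4 and 18.2 FPKM and Ift52, a central core subunit, at 9.41 and 7.26. Ift88, whose loss in mice removes cilia, was the lowest of the core genes named Ift, at 1.53 FPKM at P3 and 2.93 at P5. Of these core genes it alone had a higher value at P5, and Ift27 exceeded it 39.9-fold at P3 and 13.8-fold at P5.

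Among peripheral IFT-B genes, Ift20, which also works at the Golgi apparatus, had 43.3 FPKM at P3 and 60.1 at P5 (mm9 chromosome 11, 78349938 to 78354975). This made it the most abundant member at P5, with a log2 ratio of 0.47 (SE 1.04). Ift57 was at 7.04 and 8.21 FPKM and Ift80 at 6.40 and 3.42. Ift172, the largest subunit of IFT-B, was at 2.91 and 1.34 FPKM, a log2 ratio of -1.12 (SE 1.38, p = 0.416 in the authors' deposited table). The IFT-A genes Ift122 and Ift140 were at 1.78 and 3.99 FPKM and at 1.53 and 2.47, and their log2 ratios were 1.16 (SE 2.71) and 0.69 (SE 1.58). Ift140 shares its locus with Tmem204, an endothelial gene listed at 0.00936 FPKM at P3 and 3.45 at P5. The part of Tmem204 reads in the Ift140 value was not tested.

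Of the BBSome genes named Bbs, 1 was abundant. Bbs4 had 21.9 FPKM at P3 and 18.1 at P5 (mm9 chromosome 9, 59169773 to 59201315), with a log2 ratio of -0.28 (SE 0.90). Every other one stayed below it at both ages. Bbs7 was at 4.91 and 6.79 FPKM, Bbs2 at 3.16 and 3.27 and Bbs9 at 1.64 and 2.80. Bbs5, which binds phosphoinositides, was at 1.73 and 4.63 FPKM, the largest ratio of the family at 1.42 (SE 2.07, p = 0.492 in the authors' deposited table). Bbs1, the gene most often mutated in Bardet-Biedl syndrome, was the lowest of the family, at 0.973 and 1.19 FPKM. Bbs4 exceeded Bbs1 22.5-fold at P3 and 15.2-fold at P5.

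Bbs10 and Bbs12 encode chaperonin-like proteins that help to assemble the BBSome. They were at 1.09 and 1.81 FPKM and at 1.89 and 1.59. The ratios of the pair had opposite signs, 0.73 (SE 1.86) and -0.25 (SE 2.12).

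Tectonic genes ranged from barely listed to moderate. Tctn3 had 6.64 FPKM at P3 and 2.19 at P5 (mm9 chromosome 19, 40670936 to 40686705), the second most negative log2 ratio of the members at -1.60 (SE 1.39, p = 0.251 in the authors' deposited table). Tctn2 was at 3.36 and 3.63 FPKM. Tctn1 was at 0.0863 and 0.377 FPKM and shares its locus with Hvcn1, which was at 0.569 and 0.785. The promoter of Tctn1 held the paired cores printed above, and the gene was near the bottom of the range in these samples.

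Genes of the same structures that carry other symbols were read from 8 lists, and 0 of their tested genes passed q = 0.05 or an unadjusted p under 0.05 in the authors' deposited table. Each count below can be set against the 55.6% of all tested rows that were higher at P5. That share varied with mean level, at 67.3% below 2 FPKM, 55.8% from 2 to 10 FPKM and 47.6% from 10 FPKM. The lists differ in level, and their counts were not matched for it. Of 10 tested IFT subunits with other symbols, 3 were higher and 7 lower. Rabl5 (IFT22) had 54.5 FPKM at P3 and 45.8 at P5, Traf3ip1 (IFT54) at 75.8 and 32.8 and Ttc26 (IFT56) at 0.556 and 1.73. In the list of ciliary motors 4 of 11 were higher. The kinesin genes Kifap3 and Kif3a were at 52.2 and 51.5 and at 19.9 and 30.9 FPKM, and the dynein light chain genes Dynlrb1, which cytoplasmic dynein shares, and Tctex1d2 at 776 and 644 and at 9.17 and 25.5.

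The list of BBSome partners with other symbols, which also holds the subunits Ttc8 and Bbip1, was lower at P5 in 10 of 11 cases. Its median log2 ratio was -0.35. Of the 6 BBSome genes named Bbs, 5 were higher at P5, whereas the subunits Ttc8 and Bbip1 were lower. Ttc8, the BBSome subunit BBS8, was at 24.0 and 8.02 FPKM, a log2 ratio of -1.58 (SE 1.13, p = 0.161 in the authors' deposited table). Bbip1, the smallest subunit, was at 94.3 and 71.3 FPKM, with an SE of 14.4 on its log2 ratio. The chaperonin gene Cct2 was at 139 and 116 FPKM and the BBSome regulator Lztfl1 at 4.60 and 2.36. Genes listed for the transition zone were split evenly, 11 of 22 higher (Cc2d1a, at 1.11 and 1.94 FPKM, is a relative of Cc2d2a and not known as a transition zone gene), with B9d2 at 27.3 and 29.2 FPKM, Tmem107 at 22.3 and 19.0, Tmem216 at 4.31 and 18.7 and Cc2d2a at 3.58 and 1.02.

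Centriole genes under other symbols were lower at P5 in 16 of 21 cases, with a median log2 ratio of -0.50. The centrin genes Cetn3 and Cetn2 were by far the most abundant, at 560 and 407 and at 108 and 76.7 FPKM. Sclt1, a distal appendage gene, was at 9.25 and 1.60 FPKM (p = 0.063 in the authors' deposited table), and Stil, a duplication factor, at 0.0247 and 1.72 (p = 0.0662 in the same deposited table of the authors). Of 16 tested genes of the pericentriolar material and satellites, 12 were lower. Among them Pcm1 was at 29.9 and 18.5 FPKM, Akap9 at 24.5 and 16.3, Cdk5rap2 at 5.60 and 2.40 and Tubgcp5 at 8.77 and 4.54.

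Genes of the ciliary membrane and the Hedgehog pathway had 9 of 19 higher at P5. The GTPase gene Arl3 was at 304 and 200 FPKM, the Hedgehog coreceptor Gas1 at 75.0 and 27.0 and the ciliary receptor Mchr1 at 2.34 and 0.546. Genes listed as cilium transcription factors had 3 of 8 higher. Rfx5, a member of the RFX family not known as a cilium regulator, was at 0.378 and 1.32 FPKM. Foxj1, the driver of motile cilia, was at 1.01 and 0.0691.

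**Figure D5:**
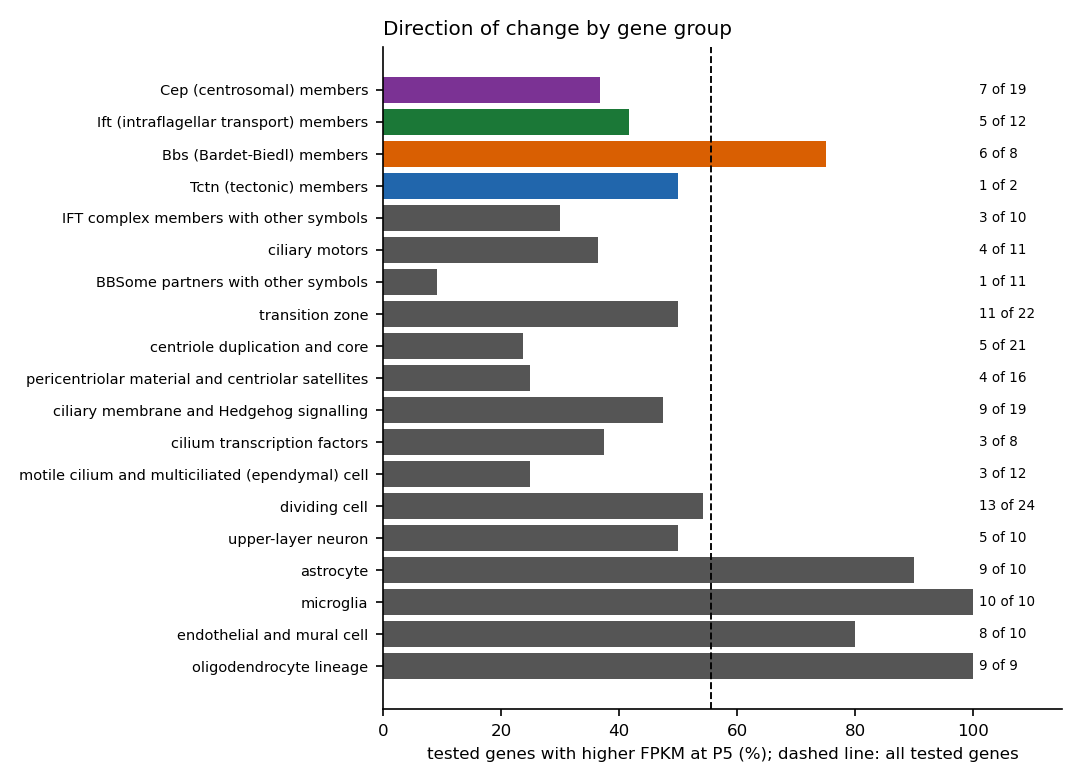
Percentage of tested genes above 0 at both ages with higher FPKM at P5 in each family, each list of related genes and each list of cell type markers, with counts at the right. The dashed line marks 55.6% of all tested genes, which the Bbs genes exceed and the Cep, Ift and Tctn genes do not reach. The line is not matched for expression level.

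Markers of other cells are given beside these values, and their part in the results was not tested. Markers of motile cilia and multiciliated cells were higher at P5 in 3 of 13 tested genes, with a summed level of 80.8 FPKM at P3 and 51.7 at P5. Rsph9 (43.9 and 29.5 FPKM) and Spag6 (5.73 and 6.64) made up most of both sums. Of the 21 listed genes in the table, 5 at P3 and 4 at P5 were listed at 0. Ccdc40 was at 2.11 and 0.184 FPKM, while Dnaic2 was at 2.59 FPKM at P3 and listed at 0 at P5. Dividing cell markers were higher in 13 of 24 genes, with sums of 231 and 205 FPKM and 0 at 0 at either age. The most abundant, Top2a and Ccna2, were at 28.9 and 22.1 FPKM and at 27.6 and 13.8. Those of lowest p were higher at P5, Aurkb at 1.59 and 10.2 FPKM and Bub1b at 0.491 and 4.30.

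Upper-layer neuron markers were present, 10 of 10 tested, with 5 higher and 5 lower and sums of 497 and 513 FPKM. Mef2c and Rorb were the highest, at 156 and 226 and at 119 and 152 FPKM. Astrocyte markers were higher at P5 in 9 of 10 genes (sums of 2380 and 3017 FPKM), microglial markers in 10 of 10 (19.5 and 144), endothelial and mural markers in 8 of 10 (916 and 956) and oligodendrocyte lineage markers in 10 of 10 (140 and 308). Among these lists 0 genes passed q = 0.05. Of the astrocyte, microglial and endothelial or mural lists, an unadjusted p under 0.05 was reached by 1, 2 and 2 genes, all higher at P5. The shares over all tested rows were 0.591% higher and 0.179% lower. The count for the oligodendrocyte lineage list is not reported here. The astrocyte genes of highest mean level were Slc1a3 at 1088 and 758 FPKM and Aldoc at 767 and 773. Without these 2 the astrocyte sum was 525 FPKM at P3 and 1486 at P5, with Apoe at 64.9 and 498, Gfap at 17.2 and 79.8 and Aqp4 at 26.8 and 97.7. Those of microglia were Fcer1g at 0.488 and 30.4 FPKM and C1qb at 9.69 and 27.5. Rgs5, a pericyte gene, was at 911 and 905 FPKM and Vtn at 1.40 and 25.1. Rgs5 made up nearly all of the endothelial and mural sum, which without it was 5.17 FPKM at P3 and 51.1 at P5. Among oligodendrocyte lineage genes, Olig1 had 48.1 FPKM at P3 and 50.9 at P5, while the median of that list was 10.2 and 27.9 FPKM. At P3, 1 gene each of the microglial, endothelial and oligodendrocyte lists was listed at 0.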

How the data were processed

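RNA had been sequenced from 3 sorted samples at P3 and 3 at P5. Per the submitters' processing notes, the tools were TopHat and Cuffdiff 2.02 and the build mm9. The annotation and strandedness were not given in the sources used here. The deposited table gives 1 FPKM per age pooled by the authors' Cuffdiff run, with a log2 ratio, a test statistic (both handled as scores, per the file headers), a p-value and a q-value per gene. The number of columns of per-sample values left aside was 0. Depth is unknown.

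The main test was the authors' Cuffdiff test at q = 0.05, adjusted over 12865 rows. Across the 12313 tested rows with FPKM above 0 at P3 and P5, the deposited p-value and a two-sided normal p of the statistic differed by at most 2.8e-06. Dividing the ratio by the statistic therefore gave the SE, and 95% intervals span 1.96 SE on each side. The SE and adjustment steps were tested on simulated data.

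Members, lists and alternatives were chosen with earlier results of these data known. Genes named with values were those of highest level and lowest p in each family, a listed set of Cep, Ift and Bbs genes, and from each list the 2 highest and, outside cell type lists, the 2 of lowest p with at least 1 FPKM. Cep72, Cep76, Cep110, Cep57l1, Ccdc40, Dnaic2, Cc2d1a, Aurkb, Bub1b, Apoe, Gfap, Aqp4 and the neighbours at shared loci were named after their values were seen. The same holds for Ttc21b and Wdr35. A marker gene that the rule names and a promoter window are not reported here. The 15 lists, the roles of members and the motifs were written by hand. Loci are those of the deposited mm9 table, with start positions read as counted from 0 and printed from 1. Among 20141 genes with a namesake in GENCODE M21, end minus start gave exactly the length of the gene for 2634 and 1 base less for 437. Promoter sequences are those of RefSeq on GRCm38.p6 and transcript lengths those of GENCODE M21. Neither build's coordinates were converted. Analyses used Python 3.11.15, pandas 2.3.3, numpy 2.4.6, scipy 1.17.1 and matplotlib 3.10.9. Alternatives were other thresholds, pseudocounts of 1 and 0.1 FPKM, a minimum of 1 FPKM, all rows whatever their status, means, centring and leaving out shared loci.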

Additional observations from a re-analysis of the deposited data

How the results depend on the processing

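The number of members called was 0 at q = 0.05 and also at an unadjusted p under 0.05, at q of at most 0.01, with a minimum of 1 FPKM and with the statistic divided by its robust spread of 0.66, where the lowest q of a member was 0.591 and 3 rows of the table reached 0.05. A median log2 ratio was taken as moved when its sign changed or it shifted by more than 0.25, and a median FPKM when it changed by more than 1.5 times. With means in place of medians, the log2 ratio was 0.037 for Cep genes and 0.021 for all members. Mean FPKM at P3 and P5 was 7.34 and 4.63 for Cep, 19.5 and 15.7 for Ift, 4.67 and 5.02 for Bbs and 9.95 and 7.62 for all members. With every row whatever its status the Tctn median was 0.112. The other 58 settings moved no call, median ratio or median level past these limits. For single genes only a change of sign was counted as moved, and 161 settings left the sign as it was. The 3 exceptions were Bbs2, Cep120 and Tctn2, whose small positive ratios turned negative when ratios were centred on the median of all rows, 0.13. The size of a ratio could shift without a change of sign. With a pseudocount of 1 FPKM, Cep72 went from 3.68 to 0.54 and Cep55 from 2.30 to 1.29. No paired analysis was possible because the table holds 1 pooled value per age, and for the same reason no replicate could be left out. Motif shares over genes with a single start and marker sums without their highest genes were added after seeing the data. Errors are wide at low FPKM, and the depth is unknown.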

Other observations

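Level and transcript length went together among the 4 families. Over 42 members with a protein-coding transcript in GENCODE M21 (Tctn2 had none), mean FPKM and the length of the longest such transcript had a Pearson correlation of -0.50 on log scales and a Spearman correlation of -0.51. Over 10844 tested rows the values were -0.21 and -0.19. The 17 members with transcripts under 3000 bases had a median of 7.60 FPKM, and the 25 longer ones 2.23, against 8.17 and 4.93 over all such rows. Ift27 and Ift20, the most abundant members, had 2 of the shortest transcripts, of 1013 and 1141 bases. All points come from the same pooled libraries, and FPKM is itself divided by a length, so this is a description only.

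The order of the members by level was much alike at both ages. FPKM at P3 and at P5 had a Pearson correlation of 0.90 on log scales over the 43 members and 0.81 over 12313 tested rows. The Spearman values were 0.86 and 0.88. Among the largest moves in rank, Tctn3 went from place 15 to 31 and Cep70 from 10 to 24, whereas Bbs5 went from 30 to 15 and Cep55 from 39 to 25.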
